A study of Mus musculus with 16 samples.

Results

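Polycomb repressive complex 2 (PRC2) is described here through the messenger RNA of its subunit genes in mouse gliomas that carry mutant or unmutated histone H3.3. The set holds 10 genes named for their place in the complex: Ezh2, Ezh1, Suz12, Eed, Rbbp4, Rbbp7, Mtf2, Phf19, Jarid2 and Aebp2. They were found by symbol in the deposited expression table, where all 10 of the 10 are among 23355 genes, and all 10 passed the filter on low values that left 15007 genes for testing. The rule goes by name and uses no measured value, but the set was proposed with earlier results of these data known.

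Tumours were made by injecting mice of the Nestin Tv-a; p53 fl/fl genotype (C57BL/6) at postnatal day 3 with RCAS vectors, which are avian retroviral vectors that infect only cells bearing the Tv-a receptor. The Nestin promoter drives that receptor, so the cells open to infection are those that express Nestin, a marker of neural progenitors. The H3.3K27M group (7 tumours) received RCAS-H3.3K27M, and the H3.3WT group (9 tumours) received RCAS-H3.3WT. These numbers follow the labels and the table, while the design text counts 5 tumours with H3.3K27M and 3 without. Both groups also received RCAS-PDGFA, a growth factor ligand, and RCAS-Cre, which deletes the floxed p53 gene. The controls are therefore gliomas that share PDGFA and p53 loss and carry vector-borne unmutated H3.3, and no label names a change to the host's own H3.3 genes. The tumours are labelled untreated, and their age at collection is not given in the sources used here. RNA of tumour tissue was made into mRNA libraries and sequenced as 50 bp single reads.

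PRC2 places methyl groups on lysine 27 of histone H3, a mark of silenced developmental genes. Ezh2 or Ezh1 is the methyltransferase, Suz12 and Eed hold it in an active form, and Rbbp4 or Rbbp7 binds histones. One form of the complex carries a Polycomb-like protein such as Mtf2 or Phf19, and another carries Jarid2 and Aebp2. The K27M change of H3.3, found in diffuse midline gliomas of children, is known to inhibit PRC2 and to lower the mark across most of the genome. Whether the transcripts of the subunits differ between tumours with and without the mutant histone is the comparison the design allows.

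Library numbers follow the deposited table, in which 10 to 16 are H3.3K27M and 1 to 9 are H3.3WT. The libraries held 11439144 (library 8, H3.3WT) to 41730692 reads on genes, and every library but library 8 held at least 30377560. The lowest count of any member in any library was 193 reads (Phf19, library 8), so all members lie far above a floor of 3 reads. Values are normalized counts, that is, reads divided by a size factor per library. Libraries also differed in how the values depend on exon length. The slope of log2 values per doubling of exon length had a lowest, median and highest value of -0.05, 0.13 and 0.23 in H3.3K27M libraries and of -0.31 (library 8), -0.11 and 0.12 in H3.3WT libraries. Markers of oligodendrocyte progenitors, the cell type that PDGF-driven gliomas resemble, were all measured (8 of 8). Their mean log2 value was 14.3, 15.2 and 15.6 (lowest, median, highest) in H3.3K27M libraries and 13.97, 14.8 and 15.3 in H3.3WT libraries. No marker of another cell type passed adjustment. Of these, 11 of 15 neuronal markers and 6 of 7 of oligodendrocytes were lower in H3.3K27M tumours. So were 7 of 8 of endothelium and 5 of 5 haemoglobin-related genes, while 7 of 8 progenitor markers were higher. At an unadjusted limma p under 0.05, 3 neuronal and 1 endothelial marker were lower, 1 neuronal marker was higher, and no other marker counted here passed. Of all 15007 tested genes, 7426 were lower. At that threshold 6.61% were lower and 8.7% higher. Astrocyte markers were 3 higher and 4 lower, microglial markers 5 and 5, and 5 tested T cell markers 2 and 3. The mean log2 value of neuronal markers was 6.32, 8.06 and 10.1 (lowest, median, highest) in H3.3K27M libraries. In H3.3WT libraries it was 7.04, 8.08 and 12.1. For oligodendrocytes it was 6.89, 9.22 and 10.9 in H3.3K27M and 7.56, 9.22 and 13.2 in H3.3WT libraries. For endothelium it was 9.07, 9.79 and 10.6 in H3.3K27M and 9.12, 10.3 and 11.1 in H3.3WT libraries. For haemoglobin it was 4.63, 8.44 and 12.3 in H3.3K27M and 4.94, 11.8 and 15.4 in H3.3WT libraries. With the neuronal score as a covariate, the median log2 difference of the 10 PRC2 members was 0.22, and with the microglial score 0.22. The part of the other cell types in the members' values was not tested.

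The promoter windows of 4 members are shown: the 3 that hold a match to the words searched, and Ezh1, which holds none. Each runs from 250 bases before to 50 bases after the annotated gene start, 5′ to 3′ on the gene's strand, from RefSeq on GRCm38.p6. They lie at chr6:47594981-47595280 (Ezh2, minus strand), chr11:79992856-79993155 (Suz12, plus strand), chr2:34913927-34914226 (Phf19, minus strand) and chr11:101226414-101226713 (Ezh1, minus strand). Capitals mark a match to 1 of 4 E2F words (TTTCCCGC, TTTCGCGC, TTTGCCGC and TTTGGCGC), searched on both strands. E2F factors are regulators of genes for DNA replication, and none of the 4 words is the reverse complement of another.
Ezh2: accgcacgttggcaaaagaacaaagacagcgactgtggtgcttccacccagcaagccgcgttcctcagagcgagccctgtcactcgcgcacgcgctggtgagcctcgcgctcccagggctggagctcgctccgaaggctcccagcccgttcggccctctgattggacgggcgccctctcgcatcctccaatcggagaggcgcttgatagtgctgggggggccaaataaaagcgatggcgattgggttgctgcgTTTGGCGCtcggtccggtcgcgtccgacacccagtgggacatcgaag
Suz12: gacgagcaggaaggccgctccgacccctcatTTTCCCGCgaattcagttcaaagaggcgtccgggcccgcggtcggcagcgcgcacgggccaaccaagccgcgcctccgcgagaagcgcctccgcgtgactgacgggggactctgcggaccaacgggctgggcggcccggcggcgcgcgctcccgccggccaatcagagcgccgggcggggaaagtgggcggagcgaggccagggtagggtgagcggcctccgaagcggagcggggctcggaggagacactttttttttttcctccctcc
Phf19: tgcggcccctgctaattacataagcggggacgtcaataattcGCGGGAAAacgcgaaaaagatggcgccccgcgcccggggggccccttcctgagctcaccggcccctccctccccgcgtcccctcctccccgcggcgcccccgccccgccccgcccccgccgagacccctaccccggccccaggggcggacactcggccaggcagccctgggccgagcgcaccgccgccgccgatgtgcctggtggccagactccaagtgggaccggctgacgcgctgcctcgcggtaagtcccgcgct
Ezh1: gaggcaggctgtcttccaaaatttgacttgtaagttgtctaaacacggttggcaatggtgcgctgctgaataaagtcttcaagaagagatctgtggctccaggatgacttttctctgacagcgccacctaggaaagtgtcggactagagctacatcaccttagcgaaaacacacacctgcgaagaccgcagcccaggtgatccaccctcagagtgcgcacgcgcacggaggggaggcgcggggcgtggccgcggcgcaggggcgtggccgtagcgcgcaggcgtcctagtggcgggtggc

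The word in the Ezh2 window, TTTGGCGC, begins at position 4 after the start. The Suz12 window holds TTTCCCGC at position -219, and the Phf19 window holds the same word on the opposite strand, beginning at -208. The Ezh1 window has no match, nor have the windows of the other 6 members. A word is thus present in 3 of 14 windows of the members (21.4%), against 744 of 32851 windows of all genes (2.26%). The members' windows are rich in CpG, and among windows with at least 20 CpG the share was 3 of 10 for windows of the members (30.0%) and 448 of 8701 for all genes (5.15%). A match describes letters in the window and is not evidence that a factor binds there. Its relation to markers of cell division was not tested.

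None of the 10 PRC2 genes differed between H3.3K27M and H3.3WT tumours past the test, and in every member the values of the 7 H3.3K27M libraries overlapped those of the 9 H3.3WT libraries. Mean levels were higher in H3.3K27M tumours for 8 members, by 0.08 to 0.33 on the log2 scale, and lower for Rbbp4 and Rbbp7. The median log2 difference of the 10 members was 0.23, beside 0.00 for all tested genes, of which 50.5% were higher. With limma on log2(value + 1) and Benjamini-Hochberg adjustment over 15007 genes, 0 of 10 members had an adjusted p under 0.05, against a background of 0.0% of all genes (0 of 15007). At an unadjusted p under 0.05 the count was again 0 of 10 members, with limma, with edgeR and with DESeq2, against a background of 15.3% of genes with limma (2298), 15.9% with edgeR and 17.6% with DESeq2. The limma background was 8.7% for genes higher in H3.3K27M tumours and 6.61% for genes lower. With adjustment, edgeR called 0 genes and DESeq2 called 113 genes, none of them a member. The RNA comes from bulk tumour tissue, in which fewer cells of a type and less RNA per cell cannot be told apart.

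**Figure D1:**
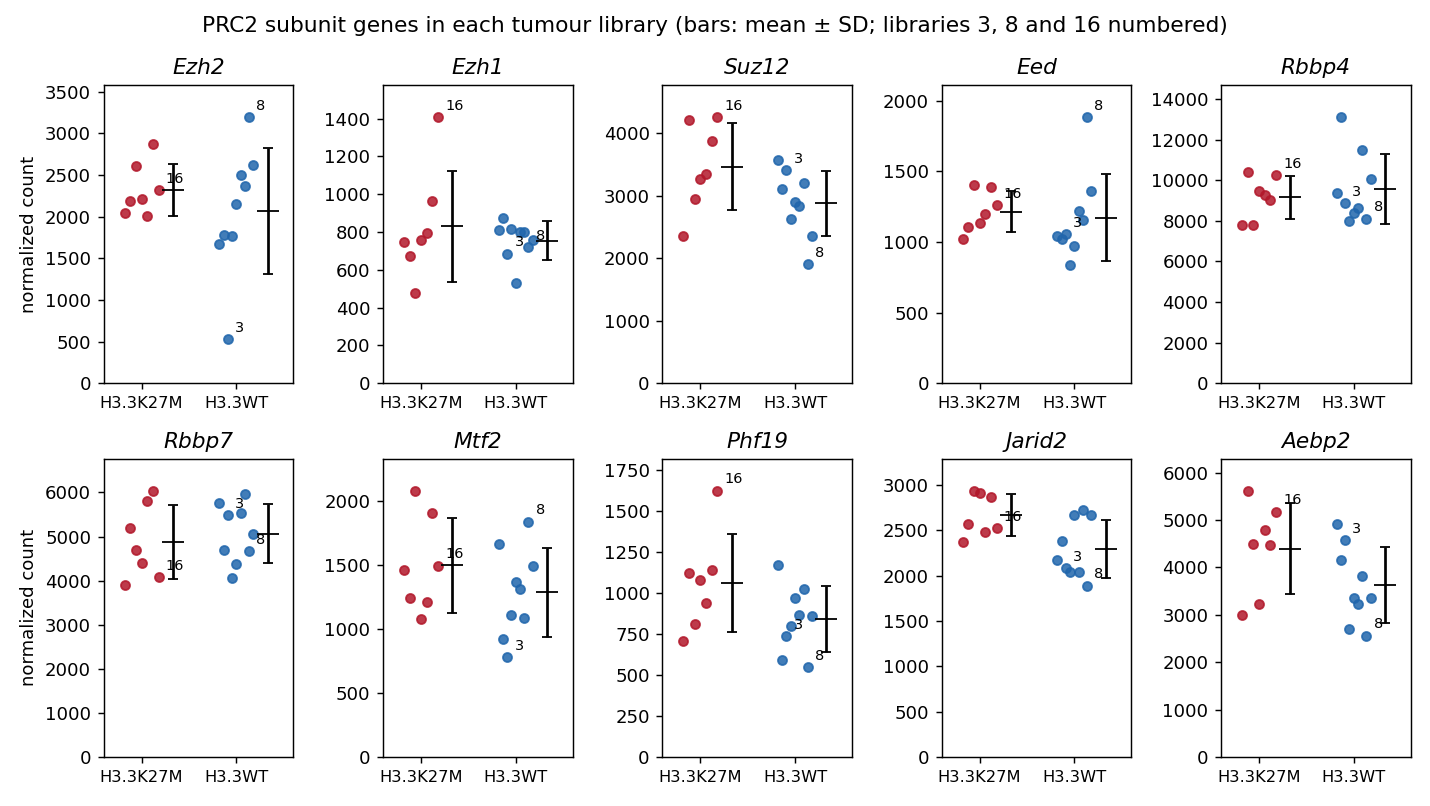
Normalized counts (linear axis from 0) of the 10 PRC2 subunit genes in 7 H3.3K27M libraries (left, red) and 9 H3.3WT libraries (right, blue), where each point is 1 library and bars are the group mean ± SD. The groups overlap for every gene, and Ezh2 has 1 low H3.3WT library at 532.

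Ezh2 (Ensembl ENSMUSG00000029687, mm10 chr6:47530139-47595341, minus strand) encodes the methyltransferase of dividing cells. Its normalized counts in the H3.3K27M libraries were 2046, 2184, 2611, 2209, 2001, 2870 and 2319, in library order from 10 to 16. In the H3.3WT libraries 1 to 9 they were 1670, 1781, 532, 1763, 2157, 2501, 2361, 3197 and 2621. The H3.3K27M libraries lie close together and all within the H3.3WT range, which stretches from library 3 at its low end to library 8 at its high end. Means were 2320 ± 315 in H3.3K27M tumours (SD, n = 7) and 2065 ± 754 in H3.3WT tumours (SD, n = 9). The log2 difference was 0.29 ± 0.27 (SE; 95% interval -0.27 to 0.85, limma adjusted p = 0.619). Without library 3 it was 0.06, without library 8 it was 0.39, and without both it was 0.14. Its size thus depends on these H3.3WT libraries at the ends of the range.

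Library 3 had 23.6% of the Ezh2 level of the other H3.3WT libraries, taken as their median of 2259. Mtf2 was also low there, at 58.2% of that median, while Suz12 stood at 119%, Aebp2 at 137% and Eed at 96.2%. The low value was thus not shared by the complex as a whole. The mean log2 value of 25 markers of proliferating cells was 10.2 in library 3, the lowest of all 16 libraries, and the next lowest was 10.9.

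Ezh1 (ENSMUSG00000006920, mm10 chr11:101191115-101226463, minus strand) encodes the second methyltransferase, which persists in cells that have stopped dividing. Its counts in H3.3K27M libraries 10 to 16 were 749, 672, 475, 758, 792, 965 and 1409. In H3.3WT libraries 1 to 9 they were 812, 875, 685, 814, 527, 799, 799, 722 and 760. The spread was wider among H3.3K27M tumours, where library 16 was the highest and library 12 the lowest of all 16. Means were 831 ± 294 in H3.3K27M tumours (SD, n = 7) and 755 ± 102 in H3.3WT tumours (SD, n = 9), a log2 difference of 0.08 ± 0.19 (SE; 95% interval -0.31 to 0.47, limma adjusted p = 0.857). Without library 16 the difference turned to -0.056.

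Ezh2 made up most of the pooled Ezh2 and Ezh1 signal per exon length. Its share had a lowest, median and highest value of 64.7% (library 16), 76.5% and 86.0% (library 12) in H3.3K27M tumours. In H3.3WT tumours it was 46.4% (library 3), 76.7% and 83.1% (library 8). The medians nearly coincide, and Ezh1 exceeded Ezh2 per exon length in library 3 alone.

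Suz12 (ENSMUSG00000017548, mm10 chr11:79993106-80034123, plus strand) is the scaffold that the other core subunits need for assembly. In H3.3K27M libraries its lowest, median and highest counts were 2354 (library 10), 3345 and 4261 (library 16). In H3.3WT libraries they were 1901 (library 8), 2896 and 3572. Of the H3.3K27M libraries, 6 of 7 lay above the H3.3WT median, and 4 of 7 lay inside the H3.3WT range. The log2 difference of 0.27 ± 0.15 (SE; 95% interval -0.05 to 0.58) had a limma adjusted p of 0.400.

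Eed (ENSMUSG00000030619, mm10 chr7:89954654-89980983, minus strand) encodes the subunit that reads the finished mark and stimulates the enzyme. Its counts were 1019, 1197 and 1403 (lowest, median, highest) in H3.3K27M libraries and 837, 1058 and 1887 (library 8) in H3.3WT libraries. Every H3.3K27M library lay inside the H3.3WT range. The log2 difference was 0.08 ± 0.15 (SE; 95% interval -0.24 to 0.40, limma adjusted p = 0.826).

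Rbbp4 (ENSMUSG00000057236, mm10 chr4:129307100-129335370, minus strand) and Rbbp7 (ENSMUSG00000031353, mm10 chrX:162760402-162779092, plus strand) encode closely related histone-binding proteins that also serve other chromatin complexes. Rbbp4 had 7805, 9272 and 10396 counts (lowest, median, highest) in H3.3K27M libraries and 7998, 8890 and 13121 (library 2) in H3.3WT libraries. Rbbp7 had 3899, 4705 and 6041 counts in H3.3K27M libraries and 4059, 5053 and 5961 in H3.3WT libraries. The groups overlap widely for both genes, and H3.3WT libraries 2 and 7 hold the highest Rbbp4 values. The log2 differences were -0.05 ± 0.12 for Rbbp4 (SE; 95% interval -0.31 to 0.21, limma adjusted p = 0.864) and -0.06 ± 0.12 for Rbbp7 (SE; 95% interval -0.32 to 0.19, limma adjusted p = 0.834). When each library's trend on exon length was removed, Rbbp4 stood at -0.25 ± 0.11 (SE, unadjusted p = 0.0321, limma adjusted p = 0.491). At an unadjusted p under 0.05 the background in that fit was 9.86% of genes in either direction and 4.75% lower. The share of Rbbp4 in the pooled Rbbp4 and Rbbp7 signal per exon length had a median of 39.9% in H3.3K27M tumours and 39.0% in H3.3WT tumours.

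Mtf2 (ENSMUSG00000029267, mm10 chr5:108065674-108109004, plus strand) and Phf19 (ENSMUSG00000026873, mm10 chr2:34893757-34914026, minus strand) encode Polycomb-like proteins that guide the complex to CpG-rich DNA. Mtf2 had 1080, 1465 and 2083 counts (lowest, median, highest) in H3.3K27M libraries and 779 (library 3), 1310 and 1841 (library 8) in H3.3WT libraries. Phf19 had 705 (library 10), 1079 and 1625 (library 16) counts in H3.3K27M libraries and 548 (library 8), 863 and 1174 in H3.3WT libraries. Phf19 had the highest log2 difference of the 10 members, 0.33 ± 0.19 (SE; 95% interval -0.07 to 0.73, limma adjusted p = 0.412), with 5 of 7 H3.3K27M libraries above the H3.3WT median. Mtf2 differed by 0.23 ± 0.19 (SE; 95% interval -0.16 to 0.63, limma adjusted p = 0.562). Library 8 held both the highest Mtf2 and the lowest Phf19 of the H3.3WT libraries, so that Mtf2 was 74.8% of the pair per exon length there. The median share of Mtf2 in the pair was 53.3% in H3.3K27M tumours and 55.7% in H3.3WT tumours.

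Jarid2 (ENSMUSG00000038518, mm10 chr13:44729474-44921643, plus strand) and Aebp2 (ENSMUSG00000030232, mm10 chr6:140622663-140678472, plus strand) sit together in the other form of the complex, where Jarid2 helps to bring it to chromatin. Jarid2 counts were 2373, 2566, 2936, 2915, 2481, 2870 and 2527 in H3.3K27M libraries 10 to 16. They were 2173, 2382, 2079, 2037, 2672, 2034, 2724, 1890 and 2665 in H3.3WT libraries 1 to 9. All 7 H3.3K27M libraries lay above the H3.3WT median of 2173, and 4 of the 7 lay inside the H3.3WT range. Means were 2667 ± 233 in H3.3K27M tumours (SD, n = 7) and 2295 ± 322 in H3.3WT tumours (SD, n = 9), a log2 difference of 0.22 ± 0.11 (SE; 95% interval -0.01 to 0.46). Its unadjusted p of 0.0562 was the lowest of the members (limma adjusted p = 0.338). In the authors' deposited table the log2 fold change of Jarid2 was 0.21 with a p of 0.0315 and an adjusted p of 0.213, the single member with a p under 0.05 there, where 19.5% of genes had one. No member had an adjusted p under 0.05 in that table, as 1.41% of genes did. Jarid2 has long exons (9715 bp in all, against a median of 4424 bp over tested genes), and its difference was 0.01 once the exon length trend of each library was removed.

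Aebp2, also long at 9851 bp, behaved likewise. It had 3007 (library 10), 4495 and 5622 (library 11) counts (lowest, median, highest) in H3.3K27M libraries and 2563 (library 8), 3358 and 4911 in H3.3WT libraries. Its log2 difference was 0.28 ± 0.16 (SE; 95% interval -0.07 to 0.62, limma adjusted p = 0.419), and 0.05 with the exon length trend removed. In that fit Phf19 was at 0.28, Suz12 at 0.22, Ezh2 at 0.17, Mtf2 at 0.15 and Eed at 0.11. Ezh1 turned to -0.07 and Rbbp7 to 0.05, and the median over the 10 members was 0.08. The slopes differed between the groups, and their part in the members' differences was measured only through this fit. Leaving out library 10 put 4 members (Aebp2, Jarid2, Phf19 and Suz12) at an unadjusted p under 0.05, all higher in H3.3K27M tumours. The background in that fit was 18.9% of genes in either direction and 10.7% higher. Leaving out library 5, 7 or 9 put Jarid2 alone, 1 of 10 members, past that threshold, also higher. Backgrounds there were 12.8%, 19.3% and 16.5% of genes in either direction, and 7.29%, 11% and 9.06% higher. No member reached an adjusted p under 0.05 in any of these fits.

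**Figure D2:**
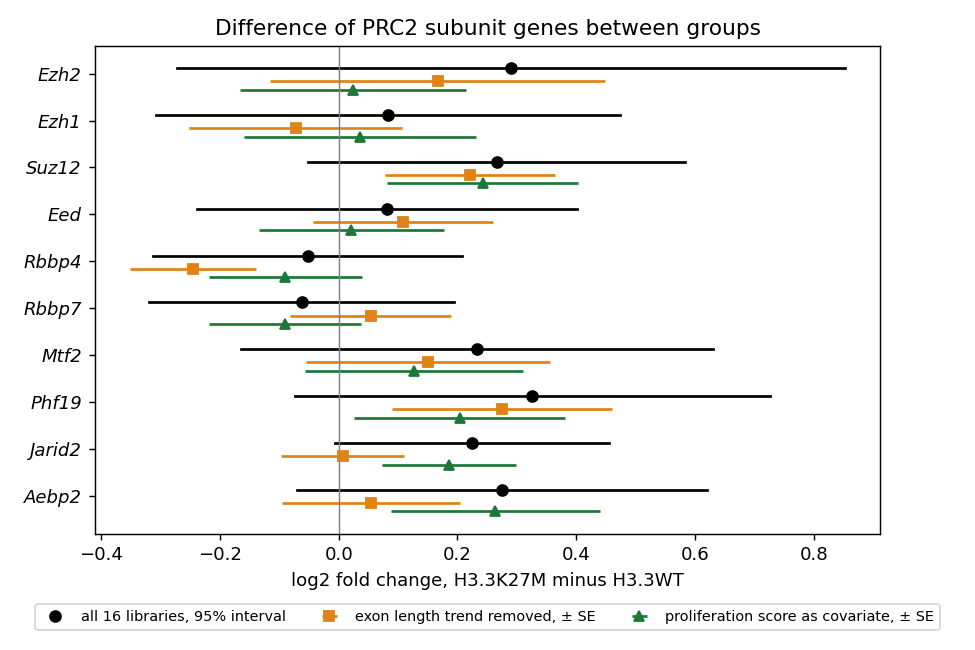
Log2 difference (H3.3K27M minus H3.3WT, on log2(value + 1)) for each of the 10 members: values as deposited with the 95% interval (circles), and with ± SE the fits with each library's exon length trend removed (squares) and with the proliferation score as a covariate (triangles). All intervals of the values as deposited include 0, and Jarid2 and Aebp2 move from 0.22 and 0.28 to 0.01 and 0.05.

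The members differed widely in level and in spread. Per kilobase of exon, the means over all 16 libraries in normalized counts were 1713 for Rbbp7, 1073 for Rbbp4, 634 for Suz12, 403 for Aebp2, 326 for Ezh2, 311 for Eed, 253 for Jarid2, 242 for Mtf2, 186 for Phf19 and 106 for Ezh1. Rbbp7 came first and Rbbp4 second in 16 of 16 libraries. Suz12 came next in 15 of 16, and in library 8 it stood at 384, below Ezh2 at 479 and Eed, which was higher still. The order below Suz12 was less firm: Aebp2 exceeded Ezh2 in 11 of 16 libraries, Ezh2 exceeded Eed in 11, and Jarid2 exceeded Mtf2 in only 9. Eed exceeded Jarid2 in 14 libraries, Mtf2 exceeded Phf19 in 11, and Phf19 exceeded Ezh1 in 15. Such levels assume that all annotated exons are used.

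The highest library exceeded the lowest by 6.00-fold for Ezh2 (1.91-fold without library 3), 2.96-fold for Ezh1 and for Phf19 and 2.67-fold for Mtf2 (2.26-fold without library 3), but by only 1.55-fold for Rbbp7 and for Jarid2. After the group means were taken out, Jarid2 had a smaller SD of log2 values than 98.8% of tested genes, Rbbp4 than 95.5% and Rbbp7 than 95.3%. These shares are over tested genes of all levels, and genes of like level were not compared apart. Ezh2 had a smaller SD than 36.5%, which made it first of the 10 members in spread, with an SD of 0.58 on the log2 scale. That place rests on library 3: without it the SD of Ezh2 was 0.27, place 7 of the 10, and Phf19 (0.38) and Ezh1 (0.36) came first.

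**Figure D3:**
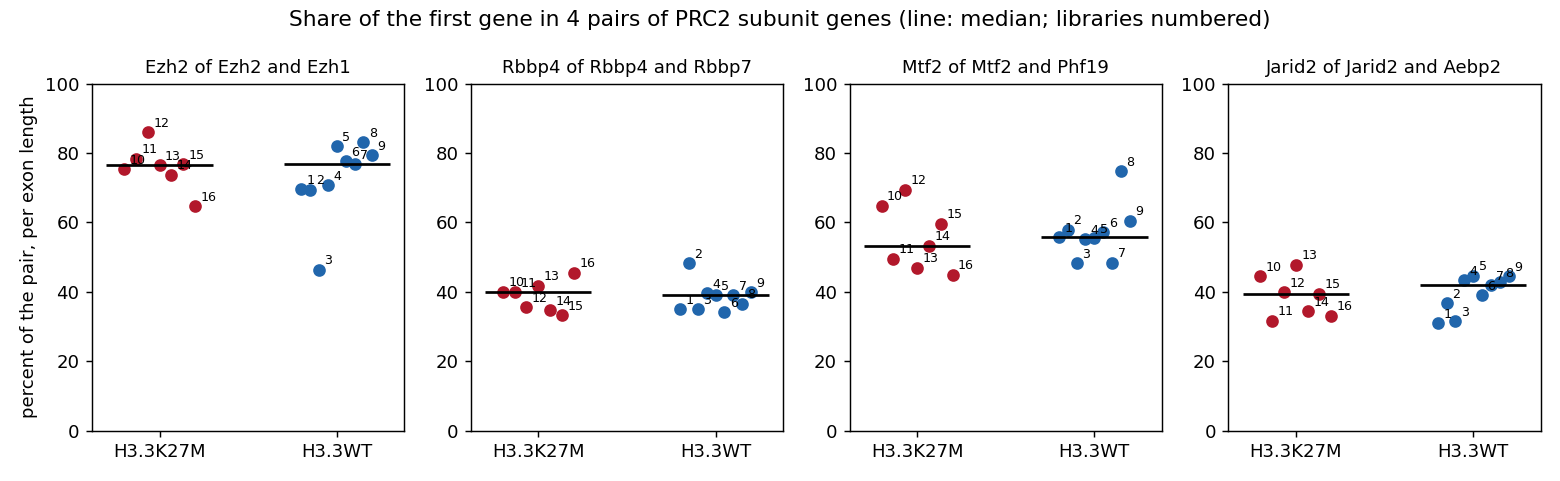
Share of the first gene in the pooled normalized counts per exon length of 4 pairs of PRC2 subunit genes, in percent, in 7 H3.3K27M libraries (left) and 9 H3.3WT libraries (right), with lines at the group medians. The groups overlap in all 4 pairs, and library 3 has the lowest Ezh2 share at 46.4%.

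Markers of proliferating cells were set beside the members because Ezh2 is known to be made by dividing cells. Their mean log2 value was 11.01, 11.5 and 11.8 (lowest, median, highest) in H3.3K27M libraries and 10.2, 11.4 and 11.8 in H3.3WT libraries. All 25 markers were tested. Means of 22 were above and of 3 below those of H3.3WT tumours, beside 50.5% of all tested genes above. At an unadjusted limma p under 0.05 there were 3, all higher (8.7% of all tested genes were), and 0 passed after adjustment. Each of the 10 members was correlated with this score and with a score of 15 neuronal markers over 16 libraries. In these 20 relations, permutation p-values (two-sided) were adjusted by Benjamini-Hochberg, and 0 of 20 Pearson correlations passed 0.05.

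Ezh2 had the highest correlation with the proliferation score, at r = 0.80 (n = 16, permutation p = 0.00287, adjusted 0.0574) and rho = 0.60 (permutation p = 0.0167, adjusted 0.167). It rests on library 3: r was 0.46 without that library, and 0.33 without the 2 libraries farthest from the median of the score. Within the groups r was 0.36 in H3.3K27M libraries (n = 7, exact permutation p = 0.429) and 0.86 in H3.3WT libraries (n = 9, exact permutation p = 0.0116, adjusted 0.232), where it was 0.33 without libraries 3 and 4.

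Phf19 followed the score in its ranks. It had r = 0.61 (n = 16, permutation p = 0.0124, adjusted 0.124) and rho = 0.75 (permutation p = 0.00139, adjusted 0.0278), and r was 0.76 without the 2 farthest libraries (adjusted 0.0408). Within H3.3K27M libraries r was 0.93 (n = 7, exact permutation p = 0.00476, adjusted 0.0476), and within H3.3WT libraries it was 0.44 (n = 9, exact permutation p = 0.237). The 7 H3.3K27M libraries order Phf19 almost as they order the proliferation markers.

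Suz12 did so within the H3.3K27M group, with r = 0.94 (n = 7, exact permutation p = 0.00218, adjusted 0.0437), and r was 0.80 over 5 libraries without libraries 10 and 16. Within H3.3WT libraries r was -0.21 (n = 9, exact permutation p = 0.566), and over all libraries 0.24 (n = 16, permutation p = 0.359). Whether the correlation differs between the groups was not tested. Ezh1 had r = 0.25 over all libraries (n = 16, adjusted permutation p = 0.690). The other members had adjusted permutation p-values of at least 0.243 over all libraries. Their r was 0.53 for Mtf2, 0.47 for Jarid2, 0.39 for Eed, 0.25 for Rbbp4, 0.17 for Aebp2 and 0.16 for Rbbp7. Rbbp4 had r = 0.81 within H3.3K27M libraries (n = 7, exact permutation p = 0.0212, adjusted 0.142) and 0.16 within H3.3WT libraries. Mtf2 had r = 0.68 within H3.3WT libraries (n = 9, exact permutation p = 0.0415, adjusted 0.415) and -0.04 within H3.3K27M libraries. With the neuronal score no member passed, the adjusted permutation p being at least 0.632 over its 10 relations. With the proliferation score as a covariate of the group comparison, the log2 difference was 0.02 for Ezh2, 0.20 for Phf19, 0.13 for Mtf2 and 0.24 for Suz12, and the median over the 10 members was 0.08.

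**Figure D4:**
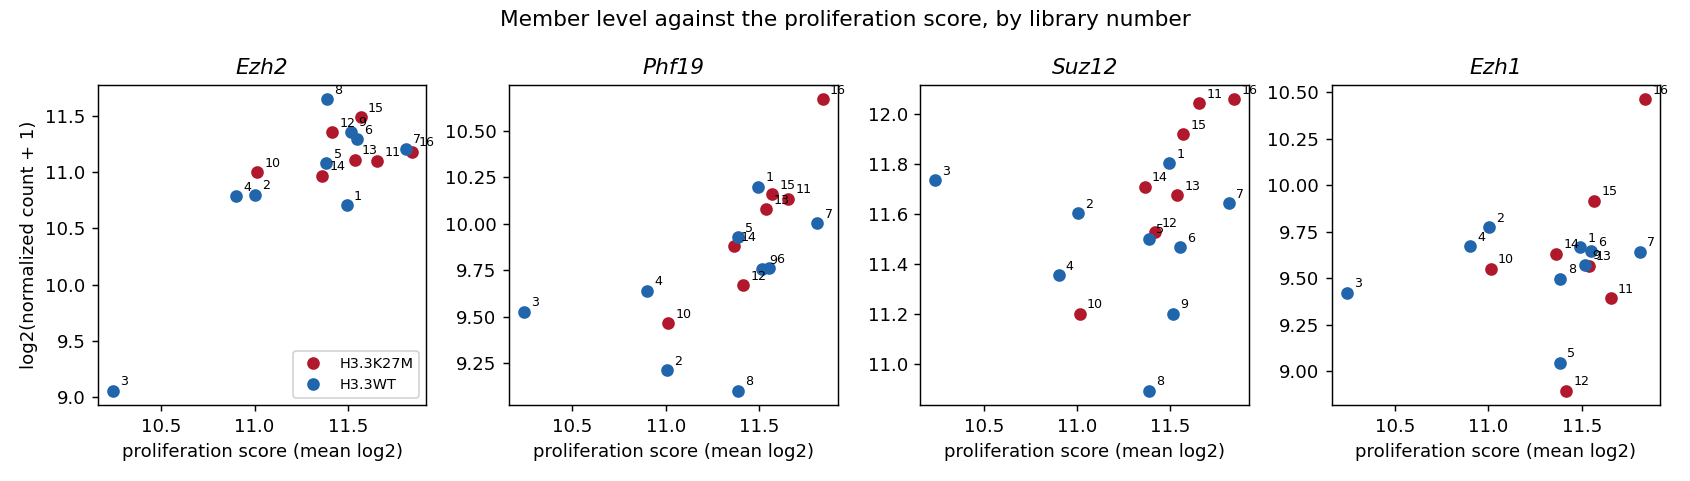
Level of Ezh2, Phf19, Suz12 and Ezh1, as log2(normalized count + 1), against the mean log2 value of 25 proliferation markers, each point 1 library, numbered, with H3.3K27M in red and H3.3WT in blue. Ezh2 in library 3 (H3.3WT) lies far below the rest at the lowest score of 10.2.

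Over 45 pairs of members and 16 libraries, 30 correlations were positive and the median r was 0.18. After adjustment over the 45 pairs, 3 passed 0.05. Suz12 and Aebp2 had r = 0.87 (n = 16, permutation p = 1e-05, the smallest the permutations can give, adjusted 4.5e-04) and rho = 0.84 (permutation p = 1.3e-04). Suz12 and Phf19 had r = 0.77 (permutation p = 6.6e-04, adjusted 0.012) and rho = 0.75 (permutation p = 0.00136). Ezh2 and Mtf2 had r = 0.70 (permutation p = 8e-04, adjusted 0.012) and rho = 0.59 (permutation p = 0.0181).

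The first of these pairs joins the scaffold to a subunit it binds directly. It had r = 0.80 within H3.3K27M libraries and 0.87 within H3.3WT libraries. Without the 2 libraries farthest from the median of Aebp2 its r was 0.82 (n = 14, permutation adjusted p = 0.00697). With the exon length trend removed it was 0.67 (permutation adjusted p = 0.0714). Suz12 and Phf19 had r = 0.89 within H3.3K27M and 0.55 within H3.3WT libraries. Without the 2 libraries farthest from the median of Phf19 their r was 0.57. Ezh2 and Mtf2 had r = 0.79 within H3.3K27M and 0.73 within H3.3WT libraries, and 0.58 without library 3 (permutation adjusted p = 0.156). That pair also missed the adjusted threshold by Spearman's rho (adjusted 0.18). Ezh2 and Eed, catalytic subunit and reader of the same core, had r = 0.51 (n = 16, permutation p = 0.0671, adjusted 0.361) but rho = 0.83 (permutation p = 1.4e-04, adjusted 0.00315). Without library 3 their r was 0.87 (n = 15, permutation adjusted p = 0.000675), and it was 0.84 within H3.3K27M and 0.47 within H3.3WT libraries. No pair passed the adjusted threshold within a group, and without library 8 only Suz12 and Aebp2 passed. Ezh2 and Suz12, also of the core, had r = -0.24, and Ezh2 and Ezh1 had r = 0.07.

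**Figure D5:**
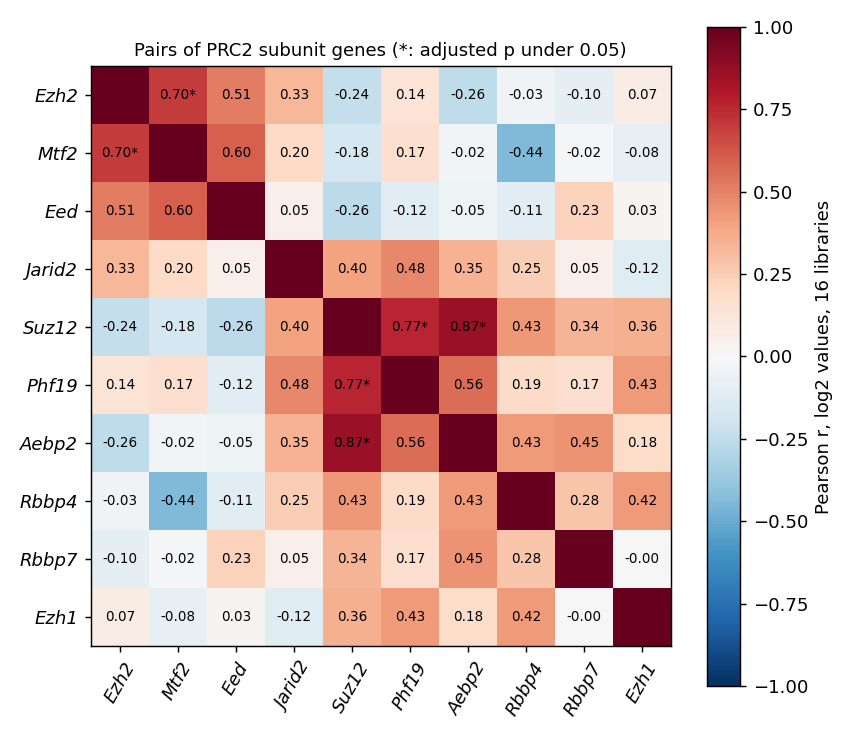
Pearson correlation of log2 values over 16 libraries for each of the 45 pairs of PRC2 subunit genes, coloured by sign and size, with an asterisk at an adjusted permutation p under 0.05. The highest values are those of Suz12 with Aebp2 (0.87), Suz12 with Phf19 (0.77) and Ezh2 with Mtf2 (0.70).

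The genes most like Ezh2 and Ezh1 were sought among all tested genes. By Pearson r over 16 libraries after subtraction of each group's mean, the 6 nearest to Ezh2 were Ccdc61 (0.94), Ccnb2 (0.93), Bora (0.93), Ska2 (0.91), Rad54l (0.90) and Ccdc189 (0.89). Ccnb2 is a mitotic cyclin, Bora an activator of mitotic kinases, Ska2 a kinetochore protein and Rad54l a recombination factor. Library 3 weighs here as well. With it dropped after that subtraction, r was 0.82, 0.73, 0.85, 0.74, 0.63 and 0.56 for these genes in the same order. The H3.3WT mean subtracted still included library 3, so its weight is not fully removed. The 6 nearest to Ezh1 were Ypel2 (0.92), Smek2 (0.88), Zfp874a (0.87), Harbi1 (0.87), Fbxl20 (0.87) and Podxl (0.85). Ezh1 was extreme in libraries 12 and 16. With both dropped in the same way, r was 0.74, 0.77, 0.73, 0.56, 0.69 and 0.67 for these genes in the same order. These values are a description, since the genes were picked as the highest of all tested.

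Genes that act beside the core were measured by lists. Of a list of 7 other Polycomb-associated genes, which includes Kdm2b and Usp7, 6 were tested. Means of 3 lay above and of 3 below those of H3.3WT tumours, 4 had an unadjusted p under 0.05 (3 higher, 1 lower) and 0 passed after adjustment. For this and the next lists, the share of all tested genes at that unadjusted threshold was 15.3%, with 8.7% higher and 6.61% lower. Lcor, whose locus also yields the PRC2 cofactor PALI1, had 315 ± 192 counts in H3.3K27M tumours (SD, n = 7) and 106 ± 69.8 in H3.3WT tumours (SD, n = 9), a log2 difference of 1.53 ± 0.45 (SE, limma adjusted p = 0.257). With the exon length trend removed it was 1.36. Kdm2b, a CpG-binding partner of Polycomb complexes, had 1722 ± 597 counts in H3.3K27M tumours and 961 ± 469 in H3.3WT tumours, a log2 difference of 0.90 ± 0.31 (SE, limma adjusted p = 0.259) that was 0.66 with the trend removed. Ezhip, an inhibitor of PRC2 that is known to act much like the K27M histone in some brain tumours, was too low for testing. It had 3.84 ± 4.13 counts in H3.3K27M tumours (SD, n = 7) and 5.69 ± 9.85 in H3.3WT tumours (SD, n = 9), with a highest value of 10.9 in H3.3K27M and 31.3 in H3.3WT libraries, and it is named after its values were seen.

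Kdm6b and Kdm6a, demethylases that remove the mark, and Uty, listed with them, were 3 of 3 higher with 0 at an unadjusted p under 0.05. Kdm6b differed by 0.17 ± 0.21, Kdm6a by 0.19 ± 0.26 and Uty by 1.33 ± 1.96 on the log2 scale (SE). Uty was at 0 in 3 H3.3K27M and 4 H3.3WT libraries, with a highest value of 830 in H3.3K27M and 678 in H3.3WT libraries. Its difference therefore depends on which libraries held it at all. With the exon length trend removed Kdm6b was at 0.03, Kdm6a at 0.008 and Uty at 1.11. All 5 tested H3K36 methyltransferases, whose mark opposes PRC2, were higher with an unadjusted p under 0.05 (8.7% of all tested genes were), and 0 passed after adjustment. Ash1l had 4402 ± 1367 counts in H3.3K27M tumours (SD, n = 7) and 2575 ± 842 in H3.3WT tumours (SD, n = 9), a log2 difference of 0.78 ± 0.22 (SE, limma adjusted p = 0.257). Nsd1 had 7761 ± 1977 counts in H3.3K27M tumours and 5561 ± 887 in H3.3WT tumours, a difference of 0.46 ± 0.15 (SE, limma adjusted p = 0.257). These are long genes, with 10754 to 17483 bp of exon, and with the exon length trend removed 4 were higher, 1 lower and 1 had an unadjusted p under 0.05, against 9.86% of all tested genes. Ash1l was then at 0.46 and Nsd1 at 0.11.

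The genes of PRC1, another Polycomb complex, were 10 higher and 9 lower of 19, with a median of 0.09. At an unadjusted p under 0.05, 4 were higher and 0 lower. With the exon length trend removed they were 9 higher and 10 lower, with 1 in each direction. Phc3 differed by 0.53 ± 0.19 (SE, limma adjusted p = 0.259) and Pcgf3 by 0.32 ± 0.14 (SE, limma adjusted p = 0.298), and these were 0.18 and 0.10 with the trend removed. The E2F and Rb genes were 11 higher and 1 lower of 12, with 4 at an unadjusted p under 0.05, all higher (8.7% of all tested genes were), 0 after adjustment and a median of 0.28. E2f3 had 2010 ± 381 counts in H3.3K27M tumours (SD, n = 7) and 1484 ± 321 in H3.3WT tumours (SD, n = 9), a difference of 0.44 ± 0.16 (SE, limma adjusted p = 0.261) that was 0.37 with the trend removed. E2f8 differed by 0.58 ± 0.23 (SE, limma adjusted p = 0.272), and by 0.51 with the trend removed. In that fit 11 of 12 were higher, with 3 at an unadjusted p under 0.05 and a median of 0.21.

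Both H3.3 genes were lower in H3.3K27M tumours without passing after adjustment. H3f3b had 18227 ± 6150 counts in H3.3K27M tumours (SD, n = 7) and 25517 ± 7813 in H3.3WT tumours (SD, n = 9), a log2 difference of -0.49 ± 0.22 (SE, limma adjusted p = 0.313). H3f3a had 256 ± 44.6 counts in H3.3K27M tumours and 321 ± 52.1 in H3.3WT tumours, a difference of -0.33 ± 0.17 (SE, limma adjusted p = 0.370). Values per gene do not separate mutant from unmutated H3.3 or vector from host, so the presence of the mutant histone was not checked here.

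Read sharing limits some members. The exons of Ezh2, Suz12, Eed, Rbbp4, Rbbp7 and Mtf2 overlap exons of genes on the other strand, and the strand setting is not given in the sources used here. Of the distinct 50-base stretches of each gene's transcripts, 17.2% for Rbbp4 and 11.2% for Rbbp7 also occur in another annotated gene, followed by 5.82% for Eed, 5.56% for Mtf2 and 2.60% for Suz12. Ezh2 shared 1.11%, Aebp2 0.364% and Ezh1 0.0930%, and Jarid2 and Phf19 shared none. Levels of Rbbp4 and Rbbp7 are the least certain for this reason.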

How the data were processed

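RNA from 16 tumours was extracted with a Qiagen RNeasy kit and made into TruSeq mRNA libraries, per the labels' protocols. STAR 2.7, HTSeq and DESeq2 with mm10 are named in the submitters' processing notes, and the role of each is not given in the sources used here. The deposited library columns hold a signal, called normalized counts here: each value is a whole number of reads divided by 1 factor per library (100.0% of values within 0.01 reads). The authors also deposited a log2 fold change, a p-value with its adjusted value and a Wald score per gene, per the file headers. The H3.3K27M columns (10 to 16) and H3.3WT columns (1 to 9) were recognised by the averages in the file headers and the group sizes, and no library was tied to a named tumour. The design text counts 5 and 3 tumours where the table has 7 H3.3K27M and 9 H3.3WT libraries. It calls the tumours separate, and p-values measure the spread between libraries.

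For each Ensembl ID 1 line was kept, leaving 23355 genes. The 15007 genes that reached 10 normalized counts in 7 or more libraries were tested with limma 3.58.1 (mean-variance trend) on log2(value + 1), which understates changes of low genes, with Benjamini-Hochberg adjustment at 0.05. edgeR 4.0.16 and DESeq2 1.42.0 on the recovered reads were alternatives. On simulated data (14878 genes) the limma fit recovered 12% of genes changed 1.5-fold, 48% at 2-fold and 84% at 4-fold. Exon lengths came from GENCODE M21 on mm10. Correlations used log2 values with 100000 permutations, or all permutations within a group. Of each other list the tested genes with the 2 smallest p-values were named, and for Ezh2 and Ezh1 the 6 most similar genes. Ezhip and Uty were named beyond this rule, after their values were seen. Members, lists and tests were chosen with earlier results of these data known.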

Additional observations from a re-analysis of the deposited data

Results flagged for a closer look

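In 34 sets of H3.3K27M or H3.3WT values (counts of the 10 members on the log2 scale, shares of paired subunits, slopes on exon length and scores of proliferation and neuronal markers), the most extreme library was compared with the rest by Dixon's gap, which by chance marks about 1 in 20 such sets. It marked 5, all among H3.3WT libraries. Ezh2 in library 3 was far below the other H3.3WT libraries at 532 normalized counts, and the Ezh2 share of Ezh2 and Ezh1 there was likewise the lowest at 46.4%. Ezh1 was lowest in library 5, at 527 normalized counts. Rbbp4 made up 48.2% of Rbbp4 and Rbbp7 in library 2, above all other H3.3WT libraries. Mtf2 made up 74.8% of Mtf2 and Phf19 in library 8, the library with the fewest reads and the steepest slope on exon length (-0.31). The part of read depth and exon length in that value was not tested.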

How the results depend on the processing

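Adjusted calls over all genes were 0 with limma, edgeR and limma voom, but 113 with DESeq2. They were 1 without libraries 3 and 8, and 0 to 13 with each library left out (13 without library 10, 1 without library 3). Genes at an unadjusted p under 0.05 numbered 1480 with the exon length trend removed and 1485 (without library 14) to 2897 with each library left out. Of the members, 1 was at an unadjusted p under 0.05 with that trend removed, and 0 to 4 with each library left out. Most member differences kept their sign. Ezh1 turned to -0.072 and Rbbp7 to 0.054 with the exon length trend removed. With each library left out Ezh1 ran from -0.056 (without library 16) to 0.21 and Rbbp4 from -0.084 to 0.0071 (without library 2). For these the cause was not tested.

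Relations of members with marker scores past the adjusted threshold were 1 with Spearman, 2 within H3.3K27M libraries, 1 without the 2 farthest libraries, 1 with group means subtracted, and 0 (without library 3) to 2 (without library 8). Suz12 with proliferation was -0.21 within H3.3WT libraries. Member pairs past it were 0 within H3.3K27M libraries, 0 within H3.3WT libraries, and 1 (without library 8) to 3 (without library 3). The 3 are not the same pairs: without library 3, and likewise with Spearman, Ezh2 with Eed passed and Ezh2 with Mtf2 did not. The fits on group means, pairs and chosen libraries left out were added after seeing the data. No paired analysis was possible because no library column could be tied to a numbered sample. In simulated data 12% of genes changed 1.5-fold were recovered, and every member's difference was smaller than that.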
